A study of Mus musculus with 36 samples.

Results

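Broad open regions are stretches of the mouse genome of 1200 bp or more that ATAC-seq peaks cover without a gap once the peaks of all 36 libraries are laid over each other. Peaks that overlapped by 1 bp or more were merged, which turned 1204561 peaks into 105005 regions, and a region was kept if it lay on chr1 to chr19, was at least 1200 bp wide after merging and was called in 2 or more libraries. This left 878 broad regions of 83376 autosomal regions called in 2 or more libraries. The regions were thus chosen by their merged width and by the number of calling libraries, so widths are given below as a description and were not tested. The median width was 1318 bp and the range 1200 to 4585 bp. The regions were called in a median of 35 of 36 libraries (range 7 to 36), and 426 were called in all 36.

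Bone marrow of young (10 weeks) and aged (20 months) female C57BL/6 mice was sorted into 8 fractions, and each library was made from 20000 sorted cells. All fractions were Lin-, and all but CLPs IL-7-, which stands for the IL-7 receptor in the study's methods. Hematopoietic stem cells (HSCs) and multipotent progenitors were Sca-1+ c-kit+. HSCs lacked CD34, CD48 and Flt3 and carried CD150, and the multipotent progenitors carried CD34: MPP1 was CD150+ CD48- Flt3-, MPP2 CD150+ CD48+ Flt3-, MPP3 CD150- CD48+ Flt3- and MPP4 CD150- CD48+ Flt3+. Granulocyte-macrophage progenitors (GMPs) were Sca-1- c-kit+ FcgR+ CD34+, megakaryocyte-erythrocyte progenitors (MEPs) Sca-1- c-kit+ FcgR- CD34-, and common lymphoid progenitors (CLPs) IL-7+ with low Sca-1 and low c-kit. There were 4 HSC libraries of each age and 2 of each age in the other fractions. The mice carried no transgene or treatment that the labels name. Per a figure legend of the study, marrow of each age was pooled and sorted in duplicate. Libraries of 1 age may thus share animals, and p-values below measure the spread between libraries.

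The deposited lists hold peaks but no read counts, so the number of reads behind a peak is unknown here. Per the study's methods mapped reads were subsampled to an equal number per library. Libraries of HSCs, MPPs and CLPs held 27087 to 40157 peaks, GMP libraries 52576 to 63288 and MEP libraries 9581 to 11041. The smallest peak was 132 to 139 bp long in GMPs and 163 to 191 bp elsewhere. Both differences touch every comparison of fractions below. At the fractions' own marker genes, Mpo and Elane (granule enzymes of the neutrophil line) had a peak at a transcription start site (TSS) in 4 of 4 GMP libraries, and outside GMPs Mpo had one in 1 MPP3 library and Elane in none. Fcgr3, an Fc receptor gene of the GMP gate, was called in 4 GMP libraries but also in 4 each of MPP2, MPP3 and MPP4 and in 3 of CLPs. Of HSC markers, Slamf1 (CD150) was called in 0 HSC libraries and Procr and Ly6a (Sca-1) in 1 each of 8, while Kit was called in 7. Of the genes whose proteins HSCs lacked in the sort, Cd48 was called in 0 HSC libraries and Cd34 and Flt3 in 8. Il7r, the receptor gene that marks CLPs, was called in 4 CLP, 4 MPP4 and 4 GMP libraries, while the CLP markers Dntt and Rag1 were called in 0 and 1 CLP libraries. Ebf1, a further CLP marker, was called in 2 CLP libraries, but also in 2 MPP1, 2 GMP, 1 HSC, 1 MPP4 and 1 MEP library. Gata1, Klf1 and Epor, which define the erythroid line, were called at a TSS in no library of any fraction, MEPs included, so the MEP label could not be checked with them. None of the 18 marker genes checked held a broad region. By the rule only genes on chr1 to chr19 could hold one, so Gata1 on chrX could not. A lower value in a fraction can mean fewer cells with the open site or less open DNA per cell, and the 2 cannot be told apart in bulk libraries.

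ATAC-seq uses a transposase that cuts where nucleosomes leave DNA free, so a peak marks an open stretch and its summit the point that was cut most. At an active promoter the open stretch sits at the TSS, between well placed nucleosomes. Many promoters of widely used genes lie in CpG islands, stretches rich in GC and in CpG dinucleotides that escape DNA methylation, bind factors of the SP and KLF families and often start transcription in both directions. Enhancers away from promoters are usually shorter and more specific to a cell type. A region that is wide after merging can be a long opening in 1 cell type or a row of shorter peaks that differ between cell types.

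Sequences under summits of 5 broad regions show the kinds of DNA found, all on the plus strand of mm10 (GRCm38), with 100 bases on each side of the summit where no exon shortened the window. Capitals mark the letters GGGCGG bound by SP and KLF factors and CCGGAAG bound by ETS factors, on either strand, and in Acsf3 a unit of a tandem repeat. The Zbtb14 window (chr17:69382702-69382902) lies at the summit that all 36 libraries shared, upstream of the TSS of a zinc finger transcription factor gene. The Hist2h3c2 window (chr3:96239128-96239306) lies at a summit of all 36 libraries by a pair of histone genes. The Kcmf1 window (chr6:72900332-72900532) holds a summit of 6 HSC libraries and of no other library. The Acsf3 window (chr8:122809447-122809647) is intronic and was a summit in 4 GMP and 3 CLP libraries. The 2 Pdzk1ip1 windows (chr4:115095764-115095964 and chr4:115096162-115096362) are summit sites 342 bp before and 56 bp past the centre of 1 intergenic region, with different fractions behind them.
Zbtb14 promoter: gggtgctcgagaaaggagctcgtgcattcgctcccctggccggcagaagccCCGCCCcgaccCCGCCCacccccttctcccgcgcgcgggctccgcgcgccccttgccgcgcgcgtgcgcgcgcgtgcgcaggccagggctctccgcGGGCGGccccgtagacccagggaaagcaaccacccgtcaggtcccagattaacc
Hist2h3c2 promoter: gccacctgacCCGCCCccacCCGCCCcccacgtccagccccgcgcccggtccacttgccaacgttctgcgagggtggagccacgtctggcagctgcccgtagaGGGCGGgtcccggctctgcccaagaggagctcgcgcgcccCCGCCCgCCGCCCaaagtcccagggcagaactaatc
Kcmf1 HSC summit: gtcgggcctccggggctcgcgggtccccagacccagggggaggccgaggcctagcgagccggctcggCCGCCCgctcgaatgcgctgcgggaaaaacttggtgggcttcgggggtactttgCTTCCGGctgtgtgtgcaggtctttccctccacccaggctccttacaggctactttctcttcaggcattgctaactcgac
Acsf3 intron repeat: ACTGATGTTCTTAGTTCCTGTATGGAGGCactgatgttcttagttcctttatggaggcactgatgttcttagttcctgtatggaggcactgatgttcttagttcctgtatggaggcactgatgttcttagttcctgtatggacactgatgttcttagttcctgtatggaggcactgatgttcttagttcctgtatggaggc
Pdzk1ip1 summit before the centre: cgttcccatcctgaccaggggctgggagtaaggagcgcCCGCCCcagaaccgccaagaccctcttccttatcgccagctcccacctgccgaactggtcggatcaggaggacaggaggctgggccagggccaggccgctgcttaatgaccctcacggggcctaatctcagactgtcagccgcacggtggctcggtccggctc
Pdzk1ip1 summit past the centre: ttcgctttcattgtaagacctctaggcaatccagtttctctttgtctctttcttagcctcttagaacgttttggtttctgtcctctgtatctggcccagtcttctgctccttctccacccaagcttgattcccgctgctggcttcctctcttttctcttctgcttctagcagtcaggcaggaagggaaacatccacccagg

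The Zbtb14 window held GGGCGG in 3 places and a GC content of 75.1%, and the Hist2h3c2 window held it in 5 places at 73.7% GC. The Kcmf1 window held 1 match of each motif. The Acsf3 window had no CpG and no match, and its sequence repeats with a period of 29 bp. The first Pdzk1ip1 window held GGGCGG once at 66.2% GC, and the second held neither motif at 48.8% GC.

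Broad regions lay mostly at promoters of protein-coding genes. The centre of 54.0% of them fell in a promoter window, which runs from 1000 bp before a TSS to 100 bp past it, 17.3% in another exon, 19.1% in an intron and 9.57% between genes. Among the 82498 narrower regions called in 2 or more libraries the promoter share was 13.3%, and 41.2% were intergenic. By the centre, the promoter share was 64.1% in the 426 broad regions called in all 36 libraries and 72.5% in the 4741 narrower regions called in all of them. A TSS lay anywhere within 84.5% of broad regions (742), within 91.8% of those called everywhere and within 85.3% of the narrower regions called everywhere. Any overlap with the promoter window was found in 85.4%, 92.3% and 86.6%. Among regions called everywhere the broad ones thus had the lower share by the centre and the higher share by these other counts, which a longer region can meet more easily. Of the 742 broad regions with a TSS, 472 had their centre in the promoter window, 143 in an exon and 127 in an intron.

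The composition of broad regions was that of CpG islands. Their median GC content was 63.7% and their ratio of observed to expected CpG 0.786, against 49.6% and 0.261 in all narrower regions. Among regions called everywhere they were 64.0% and 0.814 in broad and 62.0% and 0.787 in narrower ones. A CpG ratio of at least 0.6 with a GC content of at least 50%, called CpG-island composition here, was met by 81.8% of broad regions (718), and by 15% of narrower ones, and among regions called everywhere by 90.8% of broad and 84.0% of narrower ones. Head-to-head gene pairs, whose start sites point away from each other within the region, were found in 9.34% of broad regions, in 13.6% of those called everywhere and in 9.93% of narrower regions called everywhere. A longer region can hold such a pair more easily. Among regions called everywhere the share was 0% below 500 bp and 12.9% from 900 to under 1200 bp. It was 14.2% from 1200 to under 1500 bp and 10.8% at 1500 bp or more. In all, 843 protein-coding genes had a TSS in a broad region, and 101 broad regions held start sites of 2 or more genes.

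Peaks in broad regions were lower than those in narrower regions of equal ubiquity. Fold enrichment, the height of a summit over its local background, was ranked within each library, and the median broad region called everywhere stood at percentile 68.3 (49.3 to 74.1 over libraries), the median narrower region called everywhere at percentile 82.9 (65.8 to 87.5). Among the regions called everywhere the rank fell with width, from percentile 94.5 below 500 bp (208 regions) and 84.5 from 500 to under 700 bp to 78.9 from 900 to under 1200 bp, 70.9 from 1200 to under 1500 bp (352 regions) and 56.2 at 1500 bp or more (74 regions). Length was part of the rule and heights come from the same peaks, so this is a description. CpG-island composition was met by 34.6% of the regions below 500 bp and by 83.1% to 91.8% in every wider class.

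**Figure D1:**
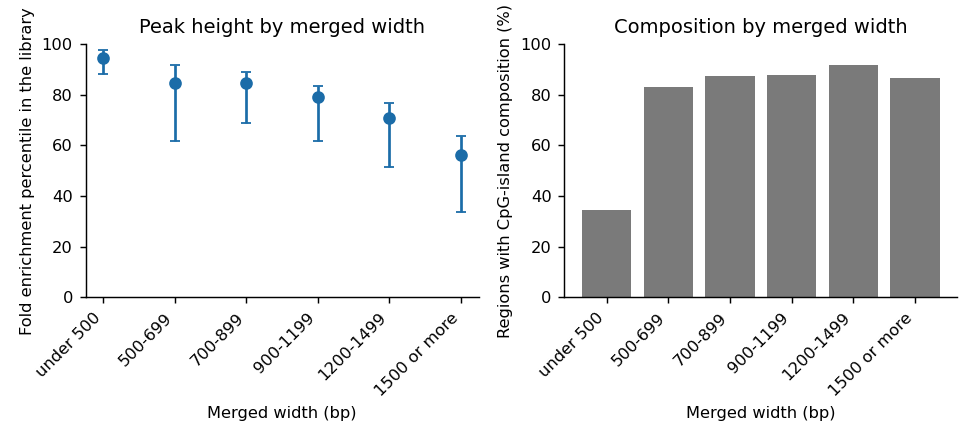
Regions called in all 36 libraries, by merged width in bp. Left, the percentile of the fold enrichment within a library, with points for the median over libraries of each library's median and bars from the lowest to the highest library. Right, the percentage of regions with CpG-island composition. The percentile falls from 94.5 in the narrowest class to 56.2 at 1500 bp or more, while the composition share is 83.1% to 91.8% in the classes from 500 bp up.

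A single library rarely opened the whole region. The median library covered 719 bp of a broad region with its peaks, which is 53.2% of the merged width. In 226 regions (25.7%) 1 peak of 1 library reached 1200 bp by itself. In a further 263 the peaks of 1 fraction's libraries joined into a stretch of 1200 bp, and in 389 (44.3%) the width arose only when peaks of several fractions were put together. Of the 1080 single peaks of 1200 bp or more in the data, 1045 lay in these regions and the longest measured 4581 bp.

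**Figure D2:**
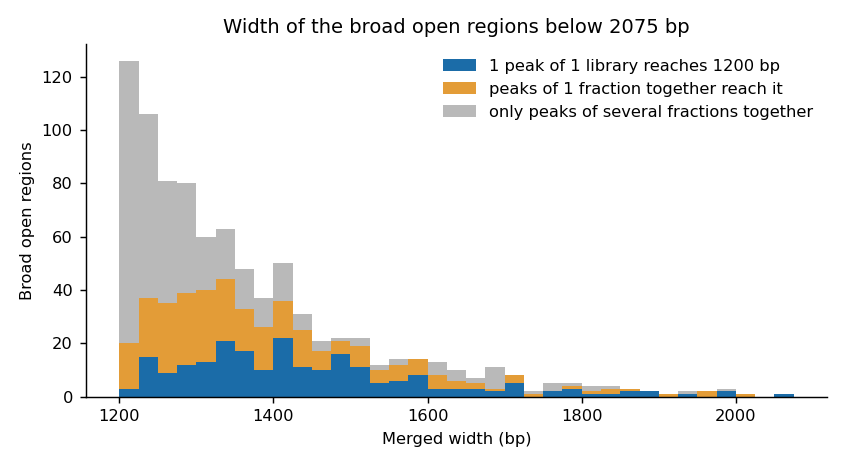
Number of broad open regions by merged width in bp, in bins of 25 bp, coloured by what it took to reach 1200 bp. Regions just above 1200 bp are mostly joined from several fractions (389 in all), and those reached by a single peak (226) are spread over the whole range. Regions above 2075 bp are not drawn.

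The threshold cuts through a continuous range. There were 618 regions from 1100 to under 1200 bp and 393 from 1200 to under 1300 bp. Just inside, at 1200 bp, lay among others the regions of Tmed8, Epb41l4a, Pfn2 and Med12l, and just outside, at 1199 bp, those of Scyl3, Arhgap5, Arhgap28, Ggta1 and Ube2q1. Of these, Med12l and Ggta1 are only the nearest genes, and the other regions named held a TSS.

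The fractions differed in how often their own peaks gave the width. HSC peaks formed a stretch of 1200 bp or more in 365 broad regions, 171 of which no other fraction reached. HSCs had 8 libraries, and with only replicates 1 and 2 of each age they reached 218 regions, 77 of them alone. With 4 libraries each, MPP1 reached 162 regions, MPP2 140, MPP4 132, MPP3 118, CLPs 85, GMPs 77 and MEPs 22. Without the 8 HSC libraries 254 regions fell below 1200 bp, without GMPs 100, without MPP1 86 and without MEPs 35. Of the fractions with 4 libraries GMPs thus gave the largest loss although their own peaks reached 1200 bp in few regions. The GMP peak lists are the longest and their peaks the shortest at the small end, and the MEP lists are the shortest, and the part of these differences in the counts was not tested.

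**Figure D3:**
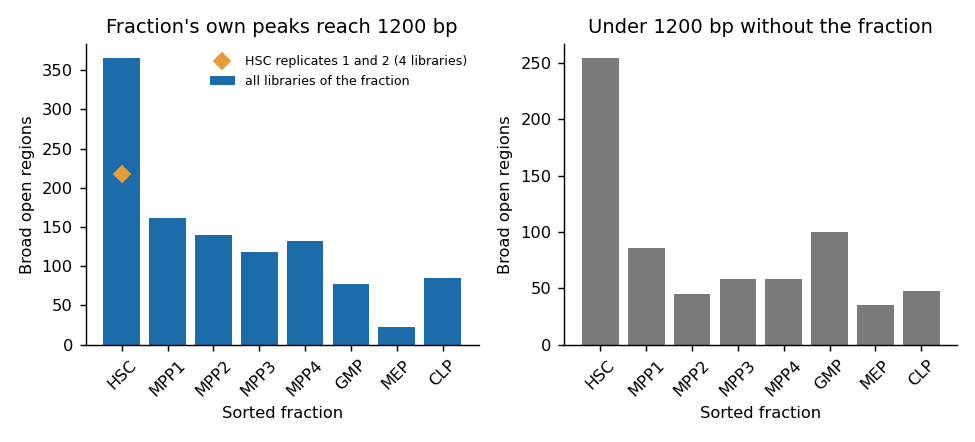
Left, the number of the 878 broad open regions in which the peaks of a fraction's own libraries form a stretch of 1200 bp or more, with a diamond for HSCs limited to 4 libraries (218). Right, the number that would fall below 1200 bp without the fraction. The right panel leaves out 8 HSC libraries (254) but 4 of any other fraction, among which GMPs stand highest with 100.

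Most broad regions were open in every fraction. A fraction was counted where at least 2 of its libraries had a peak, which the 8 HSC libraries could meet more easily than the 4 of each other fraction. By this count all 8 fractions were found in 594 regions and 7 in 219, and in 216 of those 219 the missing fraction was MEPs. MEPs had no peak in any library in 204 broad regions, GMPs and CLPs in 22 each, and HSCs in 1. MEP libraries also held the fewest peaks, 9581 to 11041 each. These counts by fraction were not made over narrower regions. A call in all 36 libraries was found in 48.5% of broad and 5.75% of narrower regions. A longer merged region can collect calls more easily, so whether these counts are particular to broad regions was not tested. The regions without a MEP peak made up 44.9% of the 136 broad regions without a TSS and 19.3% of those with a TSS. Only 19 regions were called in 4 or fewer fractions.

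Summits of all libraries together resolved most broad regions into several sites of cutting, while 39 regions had 2 sites and 1 region had 1. A site is a maximum in the density of all libraries' summits that at least 2 libraries shared, and 3792 sites were found. The most frequent number per region was 4 (314 regions), followed by 5 (244) and 3 (167). Neighbouring sites lay a median of 245 bp apart (quartiles 205 and 300 bp). A library listed on average 1.80 to 2.55 summits per region in all fractions but MEPs, where it listed 1 to 1.15. Of the sites, 1002 (26.4%) were found in at least 1 library of every fraction, and 598 only in HSC and MPP libraries. A region holds all of its sites, so a site cannot be shared more widely than its region. HSCs and MPPs gave most of the libraries, and the number of such sites to expect was not computed. Sites of a single fraction numbered 86 in GMPs, 66 in HSCs, 11 in MEPs and at most 4 in each of the others. HSCs had 8 libraries against 4 in each other fraction, and GMP lists held the most peaks, so these numbers cannot be compared directly.

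Sites were placed in order around the TSS. In the 742 regions with a TSS the site that most libraries shared lay at a median of -40 bp, just upstream of the nearest start (quartiles -137 and 68.8 bp), and 61.2% of them were upstream. The 2459 other sites of those regions lay at a median of +97 bp (quartiles -172 and 404 bp), and 38.7% were upstream. The main site of the Zbtb14 region (chr17:69382297-69384459, 2163 bp, 7 sites) lay 248 bp upstream of a TSS, was a summit in 36 of 36 libraries and had a median fold enrichment of 9.63. The sites at 45, 266 and 708 bp past the centre were summits in 22, 19 and 23 libraries at median fold enrichments of 3.92, 4.19 and 4.06, and lay at 104, -196 and 246 bp from their nearest TSS. Peaks covered 1105 to 1522 bp of this region in HSCs (median 1423.5), 1007, 1396, 1240 and 1335 bp in GMPs, and 224, 612, 293 and 649 bp in MEPs. The MEP values lay below those of every other library, and those of HSCs and GMPs overlapped.

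The 2 widest regions differed from all others. The widest, chr1:24611566-24616150, spans 4585 bp between genes with 21 summit sites, and 100% of it aligned to the mitochondrial genome at 99.96% identity, so reads of mitochondrial DNA and of this nuclear copy cannot be told apart. Its peaks covered 4558 to 4581 bp in all 36 libraries, and its fold enrichment was low, with a median of 2.78. The second, chr17:39843020-39846954, spans 3935 bp with 16 sites. It holds a start site of Gm26917 but no TSS of a protein-coding gene. Peaks covered 3310 to 3893 bp of it in all 36 libraries at a low median fold enrichment of 2.66. Only 10.5% of its length was found elsewhere in the assembly, so it is not among the 24 regions counted below. Copies that the assembly lacks could not be found this way, and their part in these peaks was not tested. A further region, chr2:22588553-22590274 in an intron, also aligned over 100% of its length to the mitochondrial genome, at 97.9% identity. In all, 24 broad regions were copied elsewhere in the genome at 95% identity or more over 50% of their length, copied in the mitochondrial genome, soft-masked as repeats over 50% of their length or built of a tandem repeat, and 854 remained without them. Tandem repeats made up 7 broad regions (0.797%) and 441 narrower ones (0.535%).

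The other 8 of the 10 widest regions held promoters. In order of width they were Setd7 (a histone lysine methyltransferase, 2267 bp), Ppp2r3d (a regulatory subunit of protein phosphatase 2A, 2225 bp), Zbtb14 (2163 bp), Crim1 (a transmembrane protein that binds bone morphogenetic proteins, 2090 bp), Csf2ra (the alpha chain of the GM-CSF receptor, 2089 bp), Nr3c1 (the glucocorticoid receptor, 2068 bp), Pgr (the progesterone receptor, 2021 bp) and Slc39a10 (a zinc transporter, 1994 bp). Setd7 was the widest region that no single fraction reached, with own stretches of 253 to 852 bp, and its peaks covered 1106, 1331, 1118 and 1386 bp in GMPs and 375 to 1182 bp in HSCs (median 790.5). Csf2ra was reached by every fraction but MEPs, with own stretches of 1226 to 1874 bp, and MEP peaks covered 374, 648, 576 and 476 bp. Its fold enrichment was 10.6 to 13.2 in GMPs, 6.87 to 9.22 in HSCs and 4.31 to 5.33 in MEPs. The GMP values lay above those of HSCs and MEPs without overlap, but the same order held over all broad regions, with median fold enrichments of 12.6 in GMPs, 8.66 in HSCs and 6.49 in MEPs.

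Crim1 was covered widely in HSCs and MPPs, while coverage of Pgr overlapped between HSCs, MPPs and CLPs. Neither had a MEP peak. Peaks covered 1081 to 1738 bp of Crim1 in HSCs (median 1248.5), 432, 788, 738 and 1019 bp in GMPs, and 561, 751, 360 and 525 bp in CLPs, with no overlap between HSCs and either. MPP1 to MPP4 reached own stretches of 1393, 1237, 1276 and 1295 bp there, against 2065 bp in HSCs. For Pgr, HSC peaks joined to a stretch of 1951 bp where no other fraction passed 904 bp. Coverage there varied widely between HSC libraries, from 443 to 1478 bp. It was 804, 1304, 1139 and 1131 bp in MPP1 and 801, 900, 1160 and 1051 bp in MPP2. MPP3 had 861, 537, 1067 and 626 bp, and MPP4 919, 699, 1034 and 1024 bp. CLPs had 561, 925, 717 and 799 bp. The values of these fractions lay within the range of HSCs, so CLPs were not set apart at Pgr as they were at Crim1. In GMPs coverage was 237, 601, 291 and 307 bp. Fold enrichments were 8.51 to 11.2 in GMPs against 4.14 to 6.26 in HSCs, in the same order as the medians over all broad regions.

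Regions that a single fraction made wide were looked at one fraction at a time, by the 3 widest of each. They were chosen by that fraction's stretch, so its longer coverage in them is a description. In HSCs these were Pgr, Slc39a10 and the pair Rdh10 and Rpl7 (a retinol dehydrogenase and a protein of the large ribosomal subunit, own stretch 1324 bp). In MPP1 they were Khdrbs3 (an RNA-binding protein, 1242 bp), Kif2a (a kinesin, 1375 bp) and Zfp800 (1508 bp), in MPP2 Dcun1d1 (a neddylation factor, 1324 bp), Arih2 (a ubiquitin ligase, 1304 bp) and Adamts7 (a metalloproteinase, 1226 bp). In MPP3 they were Cpeb2 (an mRNA-binding protein, 1345 bp), an intergenic region nearest to Dct (1384 bp) and Msl2 (of a histone acetyltransferase complex, 1256 bp), and in MPP4 Fam13b (1222 bp), Spsb4 (1418 bp) and Sh3glb1 (1202 bp). In CLPs they were Akirin2 (a nuclear protein of innate immune gene control, 1432 bp), Dennd5b (1436 bp) and Usp15 (a deubiquitinase, 1402 bp). In each of these regions other fractions had peaks too, with shorter stretches. For 2 of them the stretch was the peak of a single library. Peaks of aged MPP2 replicate 2 covered 1324 bp of Dcun1d1, and those of the other MPP2 libraries 209, 637 and 234 bp. Young MPP3 replicate 2 covered 1256 bp of Msl2, and the other MPP3 libraries 766, 467 and 827 bp.

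In GMPs the 3 widest were Hmga1 (own stretch 1664 bp), Kcmf1 (a ubiquitin ligase, 1475 bp) and Tab2 (an adaptor of the TAK1 kinase, 1521 bp). Hmga1 encodes an architectural protein that binds AT-rich DNA, and its region (chr17:27555063-27556953) was open over 1210, 1664, 1136 and 1183 bp in the GMP libraries. The stretch of 1664 bp was the peak of a single library, young GMP replicate 2. Peaks covered 0 to 693 bp in HSCs (median 413), 851, 1176, 506 and 1101 bp in MPP3, 957, 758, 547 and 582 bp in CLPs, and 239 bp in 1 of 4 MEP libraries. GMP coverage lay above that of HSCs, CLPs and MEPs, and overlapped that of MPP3. The region was chosen by its GMP stretch, so this order was partly built into the choice. The site 96 bp past the centre was a summit in 4 GMP, 3 CLP, 2 MPP3 and 1 MEP libraries and in no HSC library.

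At Kcmf1 (chr6:72898808-72900588) GMPs and HSCs extended the shared promoter site in opposite directions. The site 267 bp past the centre, 14 bp from a TSS, was a summit in 30 libraries. The site 629 bp before the centre was a summit in 4 GMP, 3 CLP, 1 MPP3 and 1 MPP4 libraries and in no HSC library. The site 734 bp past the centre, whose sequence is printed above, was a summit in 6 of 8 HSC libraries only. Coverage was 1178, 924, 867 and 1262 bp in GMPs and 467 to 975 bp in HSCs (median 606), and the ranges overlapped.

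In MEPs, the fraction with the fewest peaks, the 3 widest were 2 histone gene pairs and a repeat. The regions of Hist2h3c2 with Hist2h2aa2 (chr3:96238724-96240587) and Hist2h3c1 with Hist2h2aa1 (chr3:96245185-96247025), genes for core histones H3 and H2A, are copies of each other over 99.2% and 96.0% of their length, so their reads cannot be told apart. Each has a promoter peak at either end in all 36 libraries. MEP peaks joined across the middle to 1709 and 1590 bp, where the other fractions' stretches were 561 to 844 and 519 to 920 bp. The middle site of Hist2h3c2, 156 bp before the centre, was a summit in 4 of 4 MEP libraries, 1 MPP3 and 1 MPP4 library. At Hist2h3c1 the sites 320 bp before and 28 and 279 bp past the centre were summits in 1, 2 and 2 MEP libraries. The first was also a summit in 1 CLP, the second in 1 GMP and the third in 1 HSC and 1 MPP2 library. Covered length did not set MEPs apart, with 1116, 1181, 1155 and 1354 bp in MEPs, 1225, 1408, 1237 and 1343 bp in GMPs and 663 to 1037 bp in HSCs (median 793.5). Fold enrichment was 6.05 to 6.75 in MEPs and 8.20 to 11.6 in HSCs, beside medians over all broad regions of 6.49 and 8.66, which differ in the same direction. The repeat, chr9:124256277-124257977 nearest to 2010315B03Rik, has a period of 31 bp and was covered over 1304, 1701, 1689 and 1554 bp in MEPs and 0 to 1215 bp in HSCs (median 663.5).

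**Figure D4:**
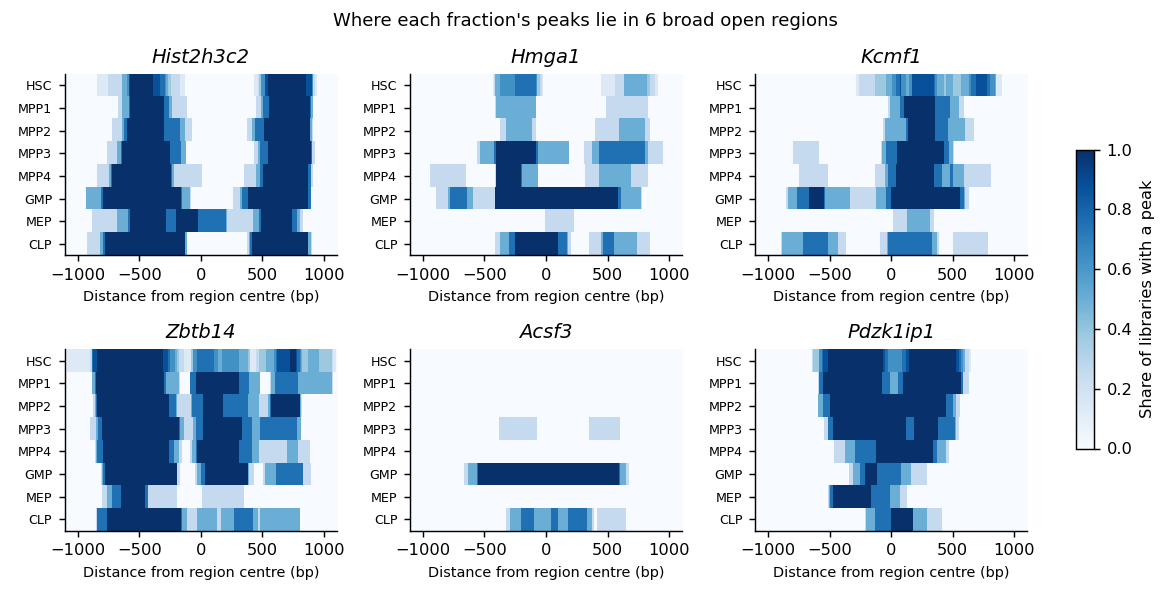
Share of each fraction's libraries that have a peak (colour, 0 to 1) against the distance in bp from the centre of 6 broad open regions, with fractions as rows. MEPs join the ends at Hist2h3c2, and at Hmga1 the GMP stretch is the peak of 1 library. GMPs extend Kcmf1 to the left where HSCs extend it to the right, and Acsf3 is open over its whole length in GMPs.

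The 3 regions that ranked lowest by the number of fractions with at least 2 libraries called, the widest first, were not promoters. In a region nearest to Vmn1r223 (chr13:23285874-23287314) peaks covered 189 to 453 bp in 3 HSC libraries and 280 to 395 bp in 1 MPP1, 1 MPP2 and 2 MPP4 libraries. A region nearest to Nfkbiz (chr16:55809340-55810893) had peaks in 3 HSC, 2 MPP4 and 3 CLP libraries. No library covered more than 707 bp of either. The region in an intron of Acsf3, a mitochondrial acyl-CoA synthetase gene (chr8:122808760-122810087), was called in 9 libraries. GMP peaks covered 1225, 1197, 1226 and 1250 bp, CLP peaks 224, 488, 351 and 857 bp, and 1 of 4 MPP3 libraries 563 bp. No HSC, MPP1, MPP2, MPP4 or MEP library had a peak there. Its sequence is a tandem repeat with 88.0% of bases equal to the base 29 bp on, and its part in the peaks was not tested.

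The 136 broad regions without a TSS fell into 2 kinds. In 50 the composition was that of CpG islands, with a median GC content of 62.6%, and the other 86 had a median GC content of 50.6%, a CpG ratio of 0.325 and a median distance of 32833.5 bp to the nearest TSS. Of the 86, 55 were intergenic and 29 intronic, and they were called in a median of 32 libraries, with 16 called in all. GATA letters (AGATAA) stood within 100 bp of the highest summit in 14% of the 86, RUNX letters (TGTGGTT) in 10.5% and PU.1 letters (GAGGAAGT) in 10.5%, against 11.0%, 13.2% and 9.79% of the 70984 narrower regions without a TSS. SP/KLF letters stood in 14% of the 86 and in 8.80% of those narrower regions. The narrower regions include ones with the composition of CpG islands, which the 86 do not.

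An intergenic region nearest to Pdzk1ip1 (chr4:115095563-115096848, 1286 bp, 36698 to 39780 bp from the start sites of Tal1, a master regulator of blood stem cells) showed how summits moved within a shared region, and was singled out after its values were seen. Peaks covered 906 to 1267 bp in HSCs (median 1143.5), 958, 1148, 1152 and 1162 bp in MPP1, 1040, 1115, 1058 and 1047 bp in MPP2, 1021, 997, 888 and 1034 bp in MPP3, 907, 842, 455 and 664 bp in MPP4, 417, 375, 538 and 205 bp in GMPs, 311, 575, 615 and 490 bp in MEPs and 382, 533, 286 and 388 bp in CLPs. The HSC, MPP1, MPP2 and MPP3 libraries lay above all GMP, MEP and CLP libraries. The site 342 bp before the centre was a summit in 7 of 8 HSC, 4 of 4 MPP1, 4 of 4 MPP2, 3 of 4 MPP3, 2 of 4 MPP4 and 4 of 4 MEP libraries and in no GMP or CLP library. The site 196 bp before the centre was a summit in 3 of 4 GMP, 2 HSC and 2 MEP libraries and in 1 each of MPP2, MPP3 and MPP4. The site 56 bp past the centre was a summit in 4 of 4 MPP4 and 4 of 4 CLP libraries, 2 MPP2, 1 HSC, 1 GMP and 1 MEP library. The site 320 bp past the centre was found in 8 of 8 HSC libraries, in all 4 of MPP1 and of MPP2 and in 3 of 4 each of MPP3 and MPP4, and in no GMP, MEP or CLP library.

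Letters of factor motifs were counted within 100 bp of the highest summit of each region, on both strands. The SP/KLF letters GGGCGG stood in 59.0% of broad regions, 68.1% of broad regions called everywhere, 64.4% of narrower regions called everywhere and 16.3% of all regions. The ETS letters CCGGAAG stood in 12.2% of broad and 17.7% of narrower regions called everywhere, and the NFY letters CCAAT in 35.7% and 41.8%. RUNX, GATA and AP-1 (TGANTCA) letters were rarer in broad regions (3.08%, 3.42% and 3.53%) than in all regions (11.7%, 9.79% and 11.5%). Among regions called everywhere, broad and narrower ones held them at 2.58% and 2.76% for RUNX, 2.58% and 2.43% for GATA and 1.88% and 2.93% for AP-1. GC content under the windows was 66.2% in broad regions called everywhere, 64.2% in narrower ones and 50.2% in all regions, and the motifs differ in GC. A match is a run of letters and does not show that a factor binds.

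Few genes of any list had a broad region, and few genes in all. Of the 12506 protein-coding genes with a region at a TSS, 6.74% had a broad one (843). Of stem and progenitor transcription factors it was 1 of 21, Etv6, an ETS family repressor that stem cells need in the marrow. Of granulocyte and macrophage genes it was 1 of 17, Csf2ra, and of lymphoid and of megakaryocyte and erythroid genes 0 of 9 and 0 of 10. Of 7 genes known to rise in aged HSCs, such as Selp and Clu, 6 had a region at a TSS and none a broad one. Of immediate early genes it was 2 of 21, Egr1 and Nfkbia, and of ribosomal protein genes 3 of 73, Rpl7, Rpl36al and Rps29. Replication histone genes stood highest with 11 of 62 (17.7%), in 7 regions. The lists are short, these are counts without a test, and those of the blood cell lists do not set them apart from all genes.

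Among the histone regions, Hist1h1c, the gene of a linker histone H1, was covered over a median of 1218 bp in CLPs and 836 bp in HSCs. The region shared by Hist1h2ac and Hist1h2bc, a divergent pair for H2A and H2B, had a median fold enrichment of 12.7. Of the 7 histone regions, 5 hold sequence that is also found elsewhere in the genome, over 46.3% (Hist1h4j) to 99.2% (Hist2h3c2) of their length, so part of their reads cannot be placed with certainty. The Etv6 region (chr6:134034861-134036188) was covered over 816 to 1138 bp in HSCs (median 979), 1230, 1074, 1105 and 1199 bp in GMPs and 979, 1193, 1013 and 1088 bp in CLPs, which overlap, while MEPs had peaks of 213 and 227 bp in the aged libraries and none in the young ones. The highest summits in a ribosomal region were at Rps29, with a median fold enrichment of 15.7. That region also holds a start site of Rn7s1, and 43% of its length is found elsewhere in the genome, so part of its reads cannot be placed with certainty.

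Age was not used to choose the regions, so young and aged libraries could be compared. Each library gave 3 values, namely the mean length its peaks covered per broad region (0 where it had none), the mean number of summits per region and the median log2 fold enrichment over the 426 regions called everywhere. Covered length was 774 ± 103 bp in young and 748 ± 53.4 bp in aged HSCs (SD, n = 4 libraries each), a difference of -25.2 bp within the spread (exact two-sided permutation test, p = 0.686). In the young HSC libraries it was 818, 895, 715 and 666 bp and in the aged ones 692, 802, 715 and 785 bp, so the groups overlapped. Summits per region were 2.22 ± 0.211 in young and 2.18 ± 0.135 in aged HSCs (SD, n = 4, exact p = 0.8), and log2 fold enrichment 3.35 ± 0.064 and 3.36 ± 0.062 (SD, n = 4, exact p = 0.771). Over all 8 fractions, with ages permuted within fractions, the mean difference of aged minus young was -4.34 bp in covered length (permutation p = 0.809), 0.0115 in summits (p = 0.791) and -0.0011 in log2 fold enrichment (p = 0.968).

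Single fractions other than HSCs had 2 libraries per age, which cannot reach a p below 0.333. Covered length was 713 ± 21.2 bp in young and 791 ± 68.4 bp in aged MPP2 (SD, n = 2 each), and 785 ± 14.7 and 714 ± 8.88 bp in MPP3, where the ages did not overlap but went opposite ways. In MPP1, MPP4, GMPs, MEPs and CLPs the ages overlapped, with differences from -63.4 bp in CLPs to 30.1 bp in MPP1.

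**Figure D5:**
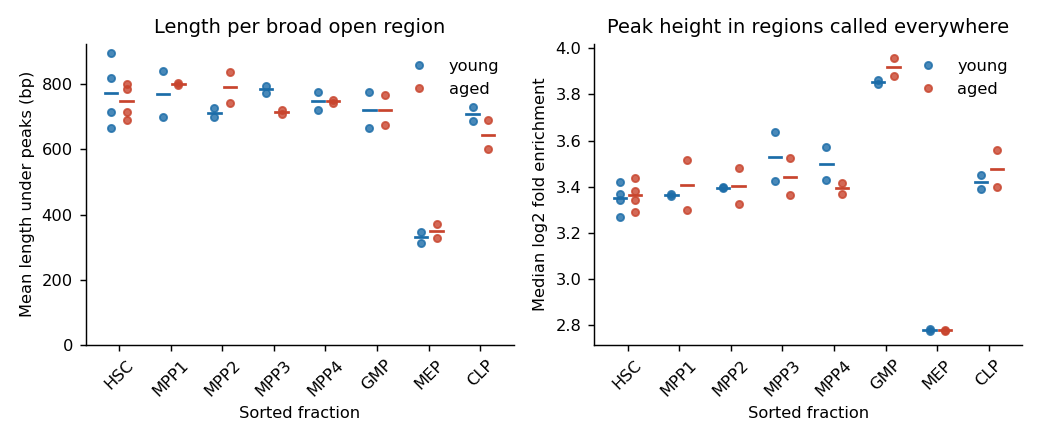
Each point is 1 library, blue for young and red for aged, with a bar for the group mean, by sorted fraction. Left, mean length in bp that peaks cover per broad open region. Right, median log2 fold enrichment over the 426 broad regions called in all libraries, on an axis that does not start at 0. Young and aged HSCs overlap in both panels, and MEPs stand below and, in height, GMPs above the other fractions at both ages.

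No broad region passed a test for age one by one. limma was fitted to log2 values of the 5167 regions called in all 36 libraries, 426 of them broad, and in HSCs to the 16786 regions called in all 8 HSC libraries, 779 of them broad. At a Benjamini-Hochberg adjusted p below 0.05, limma called 0 of the 426 for covered length and 0 for fold enrichment, where 0% of all regions fitted were called in each case. In HSCs it called 0 of the 779 for covered length (0% of all) and 0 for fold enrichment, where 2 of all regions were called (0.0119%), both higher in aged HSCs. At an unadjusted p below 0.05 the broad regions numbered 29 (6.81%) for covered length over all fractions against 5.21% of all regions, and 19 (4.46%) for fold enrichment against 5.42%. In HSCs they numbered 77 (9.88%) for covered length against 6.69% and 20 (2.57%) for fold enrichment against 7.61%. These shares lie above the background for covered length and below it for fold enrichment, by most in HSCs. The regions of a library are not independent, and the difference of a share from its background was not tested. The smallest adjusted p of a broad region was that of Pafah1b1, a gene for a dynein regulator, whose covered length was lower in aged libraries by a log2 difference of -0.37 ± 0.09 (SE, limma adjusted p = 0.318).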

How the data were processed

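ATAC-seq peaks of 36 libraries were analysed. Per the study's methods and the submitters' processing notes, the authors aligned single reads with Bowtie2 to mm10, used SAMtools, subsampled mapped reads to an equal number per library and called peaks with MACS2 2.2.6 in each library. The deposited lists give coordinates, the summit offset, the fold enrichment of each summit over local background (a ratio), the -log10 of a p-value and of a q-value, and a whole-number score. Score and p-value were not used further, and q-values served as an alternative filter. Peaks listed with several summits were counted once. Since no read counts were given, no count model was fitted and no counting intervals could be computed.

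Peaks overlapping by at least 1 bp were merged (Python 3.11.15, numpy 2.4.6, pandas 2.3.3). Positions are counted from 1 on mm10. Genes and start sites came from GENCODE M21 (basic protein-coding transcripts) and sequence from GRCm38.p6, the assembly of mm10, read with pysam 0.24.0 and samtools 1.23.1. A region was named by the gene whose TSS it held, otherwise by the gene that starts nearest to it, which may not be its target. Summit sites were maxima of the summit density smoothed with a Gaussian of 40 bp SD and shared by at least 2 libraries. Copies were found with BLAST 2.17.0 (at least 95% identity over 50% of the length), and tandem repeats as regions with at least 60% of bases equal to the base 1 period on, for periods of 10 to 200 bp. A fraction's stretch is the longest interval that the peaks of its libraries cover together.

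Ages were compared by 1 value per library, with exact permutation in HSCs (4 against 4) and 100000 permutations within fractions over all 36 libraries, both two-sided. Single regions were tested with limma 3.58.1 (R 4.3.3) on log2 covered length and log2 fold enrichment of regions called in every library of the fit, with fraction as covariate and Benjamini-Hochberg adjustment over all regions fitted. The scripts were tested on simulated data. The named regions were the 10 widest, the 5 with most summit sites, the 3 widest reached in a single fraction for each fraction, the 3 widest of the fewest fractions, the 3 widest joined across fractions, those next to the width threshold and those at listed genes. A region next to the threshold is not reported here. Since no broad region passed the adjusted threshold for age, the region with the smallest adjusted p is named in their place. The regions and gene lists were chosen with earlier results of these data known. Alternatives covered the width, overlap, number of libraries, q-value, number of peaks, fragment length, promoter window, scale, replicate block and leaving out each library. Plots were drawn with matplotlib 3.10.9.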

Additional observations from a re-analysis of the deposited data

Results flagged for a closer look

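In some fractions young and aged libraries did not overlap, and for each of the 3 measures such differences went in opposite directions between fractions. In the other fractions, HSCs among them, the ages overlapped. The differences given here come from 2 libraries per age in each fraction, and the difference between fractions was not tested. Covered length per region was 77.6 bp higher in aged than in young MPP2 and differed by -71.5 bp in MPP3. Summits per region were 0.244 higher in aged MPP2 and differed by -0.141 in MPP3 and -0.166 in CLPs. The median log2 fold enrichment differed by -0.107 in MPP4 and was 0.067 higher in aged GMPs. The number of peaks also differed without overlap in MPP3, with 34406 ± 36.8 in young and 29686 ± 3675 in aged libraries (SD, n = 2), and its part in the MPP3 values was not tested. In MPP2 the peak numbers of the ages overlapped (32353 ± 547 and 34595 ± 4672). In HSCs, the fraction with enough libraries to look for an outlying one, none was found in 6 groups.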

How the results depend on the processing

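The number of broad regions was 878 and rested on the settings that define it: 2459 regions were at least 1000 bp wide and 153 at least 1500 bp wide, and 315 remained when every library kept the same number of peaks as the shortest list. Leaving out 1 library gave 823 to 876. The share at promoters, 54.0% by the centre, was 85.4% when any overlap with the promoter window counted. Of the age differences, none passed its test under any alternative, and signs were not stable. Covered length ranged from -13.0 to 4.34 bp over all fractions and from -61.2 to 15.2 bp in HSCs when 1 library was left out, summits from -0.0105 to 0.0335 and from -0.114 to 0.0487, and log2 fold enrichment from -0.0146 to 0.0124 and from -0.0164 to 0.0359. HSC replicates 3 and 4 alone gave 59.4 bp (exact permutation p = 0.667) and replicates 1 and 2 alone -110 bp (exact permutation p = 0.333, the smallest that 2 against 2 allow). Summits over all fractions turned to -0.00568 with peaks of -log10 q of at least 10 and to -0.00306 in regions of at least 1500 bp, and fold enrichment to 0.00064 without the 24 copied or repeat regions, an alternative chosen after seeing the data. The cause was not tested. Numbers of regions that limma called stayed between 0 and 1 over all fractions when 1 library was left out, for covered length and for fold enrichment, and were 0 for covered length and 0 to 4 for fold enrichment in HSCs, where leaving out any library but young replicates 2 and 3 gave 0. On the linear scale 1 region was called for covered length over all fractions, and with -log10 q of at least 10 in HSCs 5 were called for fold enrichment. No broad region was called in any of these fits. Deviations of same-numbered young and aged libraries had correlations from -0.0625 to 0.195, above 0.1 only in GMPs, so the numbers were not taken as pairs. With the replicate block covered length differed by -4.34 bp over all fractions (permutation p = 0.777) and -25.2 bp in HSCs (exact permutation p = 0.625), and limma called 3 regions for fold enrichment in HSCs.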
